A study of Mus musculus with 67 samples.

Results

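Cytochrome P450 enzymes are haem proteins that use molecular oxygen and electrons from a partner reductase to oxidise steroids, bile acids, fatty acids, vitamins and foreign compounds. In liver, members of the Cyp1, Cyp2 and Cyp3 families clear drugs and hormones, and many are held in place by nuclear receptors, growth hormone pattern and lobular zone. In kidney and vessels, Cyp4 and Cyp2c or Cyp2j enzymes turn arachidonic acid into mediators of vascular tone and sodium handling, and other members make or degrade active vitamin D and retinoic acid. The genes described here are those whose symbol begins with Cyp and a number, leaving out 10 genes, mainly of sterol, bile acid and adrenal steroid synthesis, that were set aside (11 probe sets). The members were 63 genes read by 66 probe sets, of 19147 genes and 38385 probe sets on the array. Cyp2d22, Cyp2j6 and Cyp3a13 had 2 probe sets each, and 1 member, Cyp4b1-ps2, is a transcribed pseudogene.

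Transcripts were measured on 67 single-colour arrays in 4 tissues of male mice aged 12 weeks from 3 inbred strains on standard chow. BPH/2J is the hypertensive strain, with a stated systolic pressure of 142 ± 5 mmHg. BPL/1J is hypotensive at 69 ± 1.7 mmHg, and BPN/3J is normotensive at 94 ± 6 mmHg. The error behind these pressures was not named. There were 5 BPH, 5 BPL and 5 BPN arrays for liver and for heart, 5, 4 and 5 for kidney, and 9, 9 and 5 for aorta. The study gave 5 mice per strain, so aorta arrays outnumber the mice stated, and the labels do not tie an array to an animal. P-values therefore rest on array-to-array spread, which may be technical, and in aorta on arrays that may share an animal. These are inbred strains that differ across the genome, so blood pressure and other strain differences cannot be told apart. Liver, kidney and heart RNA was amplified as cRNA and aorta RNA as cDNA.

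Levels are log2 of the deposited intensity. Differences are log2 values ± standard error from a limma fit of each tissue. A gene is said to have risen or fallen where its adjusted p, over all probe sets, was below 0.05. Levels of different probe sets are not set against each other. Detection calls were not used here, so a strain mean under the median of its tissue's arrays is called dim and no fold is given for it. On that scale 41 of 63 member genes were above the array median in liver, 25 in kidney, 20 in heart and 15 in aorta. Bulk tissue was measured, so fewer cells of a type and less RNA per cell cannot be told apart. The defining markers of each tissue were high, with cardiomyocyte marker means between 13.30 and 13.56 in heart and hepatocyte marker means between 12.44 and 12.78 in liver.

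Some arrays stood apart by markers of a neighbouring organ. The mean of 4 hepatocyte markers was 7.92 in heart array BPH 1, 7.83 in BPL 4 and 7.92 in BPN 1, against at most 7.01 in the other hearts, and it was 7.23 in aorta array BPL 26 against at most 3.27 in the other aortas. The mean of 4 adrenal markers was 6.82 in kidney array BPL 1, 6.62 in BPN 4 and 6.98 in BPN 5, against at most 4.71 in the other kidneys. Results of these tissues were therefore also computed without these 7 arrays, a choice made after seeing the data. Values are given beside a described difference whose call changed, and the other changed calls were of Cyp2j9 in BPH kidney (0.42, adjusted p = 0.0497, newly called) and of Cyp20a1 between BPH and BPL kidney (-0.29, adjusted p = 0.0502, lost), besides those of heart and aorta given there.

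Strain differences of Cyp genes were most frequent in liver. Of 66 member probe sets, 13 differed between BPH and BPN liver, 6 higher and 7 lower (19.7%, with 7.14% of all probe sets called). Between BPL and BPN liver 17 differed, 9 higher and 8 lower (25.8%, background 7.47%), and between BPH and BPL liver 13 differed, 7 higher and 6 lower (19.7%, background 5.77%). In kidney 10 differed in BPH, 7 higher and 3 lower (15.2%, background 7.05%), and 8 in BPL, 4 higher and 4 lower (12.1%, background 6.24%). Between BPH and BPL kidney 10 differed, 5 higher and 5 lower (15.2%, background 6.33%). Heart and aorta were near or below their backgrounds. In heart 4 differed in BPH (background 7.02%), 7 in BPL (background 9.34%) and 4 between BPH and BPL (background 8.57%). In aorta 3 differed in BPH (background 9.15%), 3 in BPL (background 10.3%) and 4 between BPH and BPL (background 11%). The member median was close to that of all probe sets in liver, at 0.03 against 0.00 for BPH minus BPN and 0.01 against 0.01 for BPL minus BPN, so members moved in both directions. The median size of a difference, sign ignored, was 0.15 for members and 0.09 for all probe sets in BPH liver, and 0.12 and 0.08 in BPL liver. The BPH and BPL comparisons share the BPN arrays and are not independent of each other. The backgrounds given here also apply to the counts by subfamily, role and list below. The calls below come from separate fits per tissue, and a joint fit of all 12 groups with 1 shared spread kept 7 of 13 in BPH liver, 10 of 17 in BPL liver, 4 of 10 in BPH kidney, 2 of 8 in BPL kidney, 1 of 4 in BPH heart and 2 of 7 in BPL heart, and all 3 in BPH and all 3 in BPL aorta. Between BPH and BPL it kept 6 of 13 in liver, 4 of 10 in kidney, 3 of 4 in heart and 3 of 4 in aorta. The liver calls it lost were of Cyp1a2, Cyp1b1, Cyp20a1 (between BPH and BPL), Cyp2a12, Cyp2c29, Cyp2c70, Cyp2f2, Cyp2j6, Cyp3a25, Cyp3a44, Cyp4f18 and Cyp4v3, and the kidney calls were of Cyp1a1, Cyp20a1, Cyp26a1, Cyp2d26, Cyp2d9, Cyp2j11, Cyp2s1, Cyp4a14, Cyp4a30b, Cyp4f18 and Cyp7b1. The heart calls it lost were of Cyp26c1, Cyp2b10, Cyp2d22, Cyp2j12, Cyp2j6 and Cyp2j9, and the aorta call was of Cyp24a1.

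**Figure D1:**
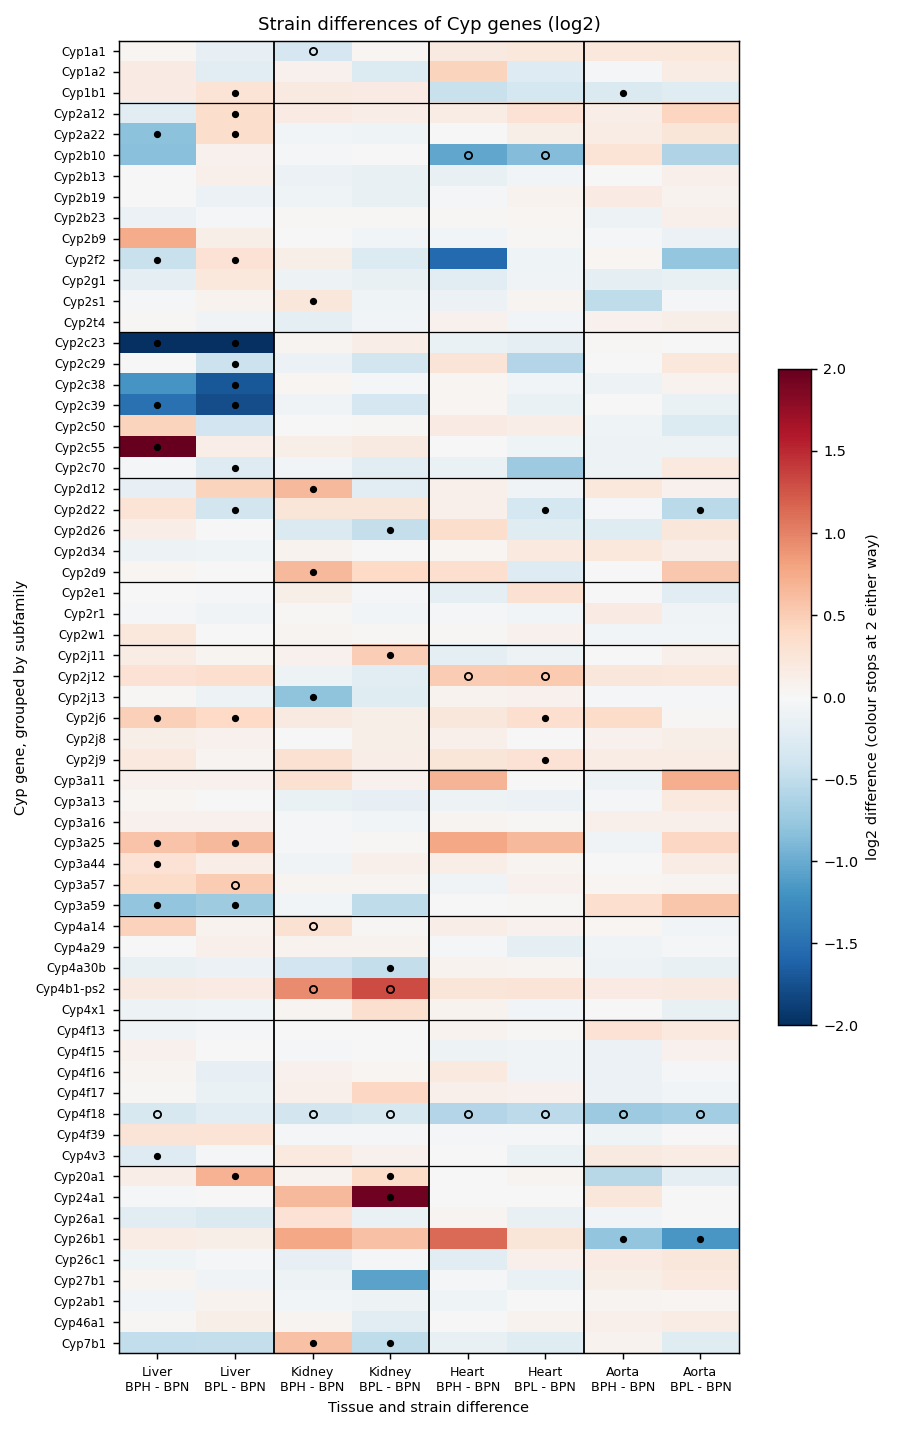
Log2 difference of each of 63 Cyp genes (rows, by subfamily) between BPH or BPL and BPN arrays in 4 tissues (columns). Red is higher and blue lower than BPN, the colour stops at 2, a filled dot marks an adjusted p below 0.05, and an open circle marks such a call on a gene dim in that tissue. The darkest liver cells are Cyp2c23, Cyp2c38, Cyp2c39 and Cyp2c55.

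In liver the Cyp2c subfamily carried the largest differences. These genes lie mostly in 1 cluster on chromosome 19 and encode enzymes that oxidise arachidonic acid, retinoids, bile acids and drugs. Of 7 measured Cyp2c genes, all above the array median, 1 rose and 2 fell in BPH, and 0 rose and 5 fell in BPL. The median difference over the 7 was -0.03 in BPH and -0.44 in BPL.

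Cyp2c23, called Cyp2c44 in older work, is an arachidonic acid epoxygenase. It read 7.40, 7.59, 7.01, 7.83 and 7.84 in BPH livers, 7.69, 7.54, 7.76, 7.80 and 7.87 in BPL livers, and 10.48, 10.17, 10.69, 10.57 and 10.54 in BPN livers. All 10 BPH and BPL arrays lay far below all 5 BPN arrays. It fell 7.77-fold in BPH (-2.96 ± 0.13, adjusted p = 1.29e-11) and 6.76-fold in BPL (-2.76 ± 0.13, adjusted p = 3.64e-11). BPH and BPL themselves did not differ past the threshold (-0.20 ± 0.13, adjusted p = 0.518). In kidney the same probe set read 0.06 ± 0.09 in BPH minus BPN and 0.13 ± 0.09 in BPL minus BPN. The liver effect differed from the kidney effect by -3.02 ± 0.17 in BPH (adjusted p = 4.35e-14) and by -2.88 ± 0.17 in BPL (adjusted p = 2.18e-13). Cyp2c23 was read by 1 probe set, and its kidney readings of 5.28 to 5.78 lay near the array median of 4.95.

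Cyp2c55, a fatty acid hydroxylase that mouse liver raises through the receptors CAR and PXR, showed a different pattern. It read 7.33, 8.23, 7.56, 7.82 and 8.65 in BPH livers, 5.04, 4.80, 5.79, 4.93 and 4.88 in BPL livers, and 5.19, 4.76, 4.73, 4.95 and 5.15 in BPN livers. Every BPH array was above every array of the other strains, and BPL and BPN overlapped. It rose 7.80-fold in BPH over BPN (2.96 ± 0.21, adjusted p = 1.35e-08) and was 7.12-fold higher in BPH than in BPL (2.83 ± 0.21, adjusted p = 1.97e-08). BPL minus BPN was 0.13 ± 0.21 (adjusted p = 0.83). The BPH effect differed between liver and kidney by 2.84 ± 0.26 (adjusted p = 3.34e-09), but the gene was dim in kidney.

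Cyp2c39, which oxidises retinoic acid, and its close relative Cyp2c38 were both highest in BPN. Cyp2c39 read 8.54, 7.56, 7.98, 8.82 and 8.62 in BPH livers, 7.66, 7.83, 7.41, 9.07 and 8.19 in BPL livers, and 9.93, 9.46, 10.09, 9.74 and 9.77 in BPN livers. It fell in BPH (-1.49 ± 0.26, adjusted p = 0.000907) and in BPL (-1.77 ± 0.26, adjusted p = 0.000136) with no overlap with BPN. Cyp2c38 read 4.95, 3.69, 3.91, 5.41 and 5.02 in BPH livers, 3.41, 4.07, 3.34, 5.40 and 4.19 in BPL livers, and 5.87, 5.38, 6.43, 5.76 and 5.45 in BPN livers. It fell in BPL (-1.70 ± 0.36, adjusted p = 0.00447), where 1 BPL array reached the BPN range, and gave -1.18 ± 0.36 in BPH (adjusted p = 0.0525). The BPL array that overlapped, BPL 4, was also the highest BPL array for Cyp2c39. Near-identical family members can share probes, and probe sequences were not used here, so readings of Cyp2c38 and Cyp2c39 may not be separate.

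The 250 bases before each annotated start are given from RefSeq (GRCm38.p6), in the direction of the gene, because Cyp2c38 and Cyp2c39 were both highest in BPN livers and Cyp2c55 of the same cluster was highest in BPH livers. They are chr19:39006769-39007018 on the plus strand for Cyp2c55, chr19:39463076-39463325 on the minus strand for Cyp2c38, and chr19:39347096-39347345 and chr19:39510572-39510821 on the plus strand for the 2 annotated starts of Cyp2c39. Capitals mark matches to short motifs, spelled out after the sequences: half-sites of nuclear receptors, the core of the HNF4 site and a half-site of HNF1 on either strand, and the TATA box in the direction of the gene. No marked matches overlap. This is the reference strain's sequence and not that of the 3 strains studied.
Cyp2c55: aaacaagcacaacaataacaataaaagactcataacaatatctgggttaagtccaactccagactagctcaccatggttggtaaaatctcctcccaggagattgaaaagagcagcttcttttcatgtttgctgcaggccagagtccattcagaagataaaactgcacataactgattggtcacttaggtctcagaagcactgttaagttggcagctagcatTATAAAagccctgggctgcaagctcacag
Cyp2c38: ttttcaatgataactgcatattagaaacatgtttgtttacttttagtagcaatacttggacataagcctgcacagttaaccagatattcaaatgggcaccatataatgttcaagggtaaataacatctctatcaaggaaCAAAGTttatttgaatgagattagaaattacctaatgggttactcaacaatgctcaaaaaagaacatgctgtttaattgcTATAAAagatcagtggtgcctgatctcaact
Cyp2c39, start 1: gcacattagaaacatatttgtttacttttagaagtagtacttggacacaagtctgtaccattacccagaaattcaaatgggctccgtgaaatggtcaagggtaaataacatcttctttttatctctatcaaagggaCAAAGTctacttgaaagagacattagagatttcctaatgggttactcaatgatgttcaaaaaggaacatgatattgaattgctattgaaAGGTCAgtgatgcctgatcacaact
Cyp2c39, start 2: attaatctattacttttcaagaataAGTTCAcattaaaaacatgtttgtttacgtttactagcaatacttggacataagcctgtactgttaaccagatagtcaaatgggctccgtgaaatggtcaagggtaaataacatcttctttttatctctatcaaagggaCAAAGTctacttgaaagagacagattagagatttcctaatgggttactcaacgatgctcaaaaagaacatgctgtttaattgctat

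Over 221 aligned bases Cyp2c38 and the Cyp2c39 window of start 2 were 89.6% identical. Aligned the same way, the Cyp2c38 window was 62.4% identical to that of Cyp2c55, and 65.9%, 64.2% and 58.6% identical to those of Cyp2a12, Cyp2a22 and Cyp2f2 on another chromosome, so the Cyp2c55 value lay among those of other subfamilies. CAAAGT, the core letters of the HNF4 site, stood in the Cyp2c38 window 111 bases before the start and in the Cyp2c39 windows 114 and 86 bases before it, and the Cyp2c55 window held none. Of 32817 such windows genome-wide, 12.6% held CAAAGT on either strand, and of 55 windows of member genes 23 did. CAAAGT is thus frequent among member genes. AGGTCA, a half-site of nuclear receptors, was found in 14% genome-wide and in 16 of 55 member windows. Its variant AGTTCA was found in 11.9% and in 7 of 55. GTTAAT, a half-site of HNF1, was found in 6.44%, in 2 of 55 and in none of the windows printed here. In the Cyp2c39 windows AGGTCA lay 25 bases before start 1 and AGTTCA 225 bases before start 2. In the direction of the gene 7.6% genome-wide and 12 of 55 member windows held TATAAA, the letters of the TATA box. It lay 29 bases before the Cyp2c55 start and 31 bases before the Cyp2c38 start.

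The other Cyp2c genes differed by less. Cyp2c29, an abundant drug and arachidonic acid oxidase, read 12.997, 13.07, 13.16, 13.13 and 13.25 in BPH livers, 12.57, 12.73, 12.76, 12.83 and 12.44 in BPL livers, and 13.12, 13.06, 13.13, 13.02 and 13.20 in BPN livers. BPL arrays lay below all others, a fall of 1.35-fold against BPN (-0.44 ± 0.08, adjusted p = 0.000867). Cyp2c70, which makes the muricholic acids typical of mouse bile, fell in BPL as well (-0.26 ± 0.07, adjusted p = 0.0154) and gave -0.03 ± 0.07 in BPH. Cyp2c50 was 1.76-fold higher in BPH than in BPL (0.82 ± 0.14, adjusted p = 0.000567) with no overlap, while neither strain passed the test against BPN (0.44 ± 0.14, adjusted p = 0.0564, in BPH and -0.38 ± 0.14, adjusted p = 0.115, in BPL).

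**Figure D2:**
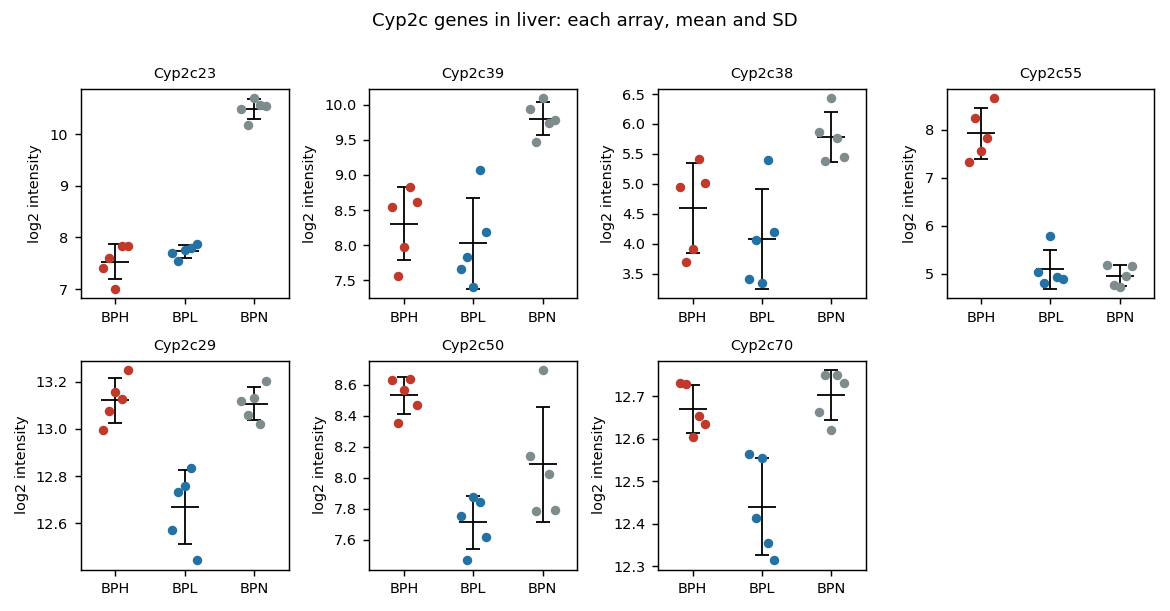
Log2 intensity of 7 Cyp2c genes on each liver array (points) by strain, with the mean (wide bar) and SD (whiskers), n = 5 arrays per strain. Cyp2c23 stays at or below 7.87 in BPH and BPL arrays and at or above 10.17 in BPN arrays, and Cyp2c55 reaches 7.33 or more only in BPH arrays. Axis ranges differ between panels.

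Neighbouring genes of the Cyp2a and Cyp2f subfamilies on chromosome 7 shared an order of strains in liver, lowest in BPH and highest in BPL. Of 11 measured genes of the Cyp2a, 2b, 2f, 2g, 2s and 2t group, 7 of them above the array median, 0 rose and 2 fell in BPH, and 3 rose and 0 fell in BPL. Cyp2a22 read 6.28, 6.19, 6.33, 6.58 and 6.22 in BPH livers, 7.56, 7.42, 7.61, 7.36 and 7.49 in BPL livers, and 7.22, 6.93, 7.35, 7.15 and 7.07 in BPN livers. It fell 1.77-fold in BPH (-0.82 ± 0.09, adjusted p = 2.87e-06), rose 1.27-fold in BPL (0.35 ± 0.09, adjusted p = 0.0174), and was 2.25-fold lower in BPH than in BPL (-1.17 ± 0.09, adjusted p = 1.86e-08). The BPL call was lost without BPN 2 (adjusted p = 0.0552). No array of a strain reached the range of another.

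Cyp2f2, which activates naphthalene in mouse liver and lung, read 12.79, 12.89, 12.83, 12.70 and 12.44 in BPH livers, 13.51, 13.46, 13.46, 13.42 and 13.51 in BPL livers, and 13.15, 13.19, 13.12, 13.24 and 13.18 in BPN livers. The 3 strains were again fully separate. It fell in BPH (-0.44 ± 0.07, adjusted p = 0.000605) and rose in BPL (0.30 ± 0.07, adjusted p = 0.0164). Cyp2a12, which hydroxylates bile acids in mouse liver, rose in BPL (0.36 ± 0.07, adjusted p = 0.00235), gave -0.20 ± 0.07 in BPH (adjusted p = 0.0939), and was lower in BPH than in BPL (-0.56 ± 0.07, adjusted p = 2.14e-05). Cyp2f2 is itself a periportal gene. Of 5 measured periportal hepatocyte markers of 8 listed, 3 rose and 0 fell in BPH and 2 rose and 1 fell in BPL, and of 8 pericentral markers 2 rose and 0 fell in BPH and 2 rose and 2 fell in BPL. The part of lobular zone in these results was not tested.

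Because Cyp2a12, Cyp2a22 and Cyp2f2 all rose in BPL liver, their upstream windows are given with the same marks, at chr7:27028840-27029089 on the plus strand, chr7:26939387-26939636 on the minus strand and chr7:27119705-27119954 on the plus strand.
Cyp2a12: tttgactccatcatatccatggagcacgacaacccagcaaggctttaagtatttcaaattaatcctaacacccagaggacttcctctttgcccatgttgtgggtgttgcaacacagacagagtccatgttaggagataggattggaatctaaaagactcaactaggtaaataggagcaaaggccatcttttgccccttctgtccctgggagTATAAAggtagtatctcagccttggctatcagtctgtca
Cyp2a22: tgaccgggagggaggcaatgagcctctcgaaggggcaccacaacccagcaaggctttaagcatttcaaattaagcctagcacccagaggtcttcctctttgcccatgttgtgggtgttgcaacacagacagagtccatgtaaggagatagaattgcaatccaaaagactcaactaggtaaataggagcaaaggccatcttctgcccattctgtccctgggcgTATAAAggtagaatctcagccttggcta
Cyp2f2: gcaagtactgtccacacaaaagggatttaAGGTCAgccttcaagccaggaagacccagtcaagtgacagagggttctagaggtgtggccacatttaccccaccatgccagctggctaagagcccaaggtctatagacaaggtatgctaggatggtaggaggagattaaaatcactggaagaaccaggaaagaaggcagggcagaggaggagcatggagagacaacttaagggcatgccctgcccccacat

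Cyp2a12 and Cyp2a22 were 90.4% identical over 239 aligned bases and each held TATAAA, 39 and 28 bases before the start. Cyp2f2 matched Cyp2a12 at 66.7% of 201 aligned bases and held AGGTCA 221 bases before its start. Cyp2a12 and Cyp2a22 probes may also read each other's transcript, which was not tested.

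The Cyp2b genes of the same chromosomal region passed no test in liver, among them Cyp2b10, a classical target of CAR. Cyp2b10 spread widely, at 4.11, 4.05, 4.98, 3.98 and 6.27 in BPH livers, 5.03, 5.59, 6.37, 5.68 and 5.34 in BPL livers and 6.11, 5.35, 5.90, 5.10 and 5.13 in BPN livers (BPH minus BPN -0.84 ± 0.36, adjusted p = 0.201). Cyp2b9, female-biased in mouse liver, was dim in every strain, with a single BPH array at 4.89.

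Cyp3a genes, on chromosome 5, oxidise steroids and a large share of drugs. Of 7 measured in liver, 2 rose and 1 fell in BPH, and 2 rose and 1 fell in BPL. Cyp3a25 read 12.47, 12.41, 12.41, 12.41 and 12.54 in BPH livers, 12.61, 12.50, 12.63, 12.51 and 12.41 in BPL livers, and 11.85, 11.76, 12.01, 11.82 and 11.96 in BPN livers. BPN was lowest without overlap, a rise of 1.48-fold in BPH (0.57 ± 0.07, adjusted p = 1.07e-05) and 1.57-fold in BPL (0.65 ± 0.07, adjusted p = 1.71e-06). Cyp3a59 did the reverse, at 7.93, 7.83, 7.26, 7.67 and 8.09 in BPH livers, 8.04, 7.89, 8.16, 7.63 and 7.47 in BPL livers, and 8.68, 8.49, 8.65, 8.30 and 8.60 in BPN livers. It fell 1.73-fold in BPH (-0.79 ± 0.14, adjusted p = 0.00137) and 1.63-fold in BPL (-0.70 ± 0.14, adjusted p = 0.0033). Cyp3a44, female-biased in mouse liver, rose in BPH (0.29 ± 0.07, adjusted p = 0.0122), and the dim Cyp3a57 rose in BPL (0.51 ± 0.11, adjusted p = 0.00781). The main drug-oxidising form Cyp3a11 gave 0.08 ± 0.07 in BPH and 0.09 ± 0.07 in BPL, and Cyp3a13 gave 0.03 ± 0.08 and -0.01 ± 0.08, none past the threshold. Coding sequences of this subfamily are alike, so shared probes are possible here too.

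Cyp2d22, often set beside human CYP2D6, was highest in BPH and lowest in BPL liver on both of its probe sets. The second probe set read 9.68, 9.75, 9.61, 9.57 and 9.63 in BPH livers, 8.96, 8.82, 9.09, 8.61 and 8.64 in BPL livers, and 9.48, 9.22, 9.40, 9.30 and 9.14 in BPN livers. It rose in BPH (0.34 ± 0.09, adjusted p = 0.0263) and fell in BPL (-0.49 ± 0.09, adjusted p = 0.00155), and BPH exceeded BPL 1.77-fold (0.83 ± 0.09, adjusted p = 4.34e-06). The first probe set fell in BPL (-0.37 ± 0.08, adjusted p = 0.00796) and gave 0.27 ± 0.08 in BPH (adjusted p = 0.0632). Cyp2d22 also fell in BPL heart, with differences of -0.35 ± 0.08 on the second probe set (adjusted p = 0.00595) and -0.30 ± 0.06 on the first (adjusted p = 0.00584). In kidney the first probe set gave 0.24 ± 0.08 in BPL (adjusted p = 0.095), and the liver effect was lower than the kidney effect by -0.61 ± 0.12 (adjusted p = 0.000763). The other Cyp2d genes passed no test against BPN in liver, among them the male-biased testosterone hydroxylase Cyp2d9 (0.04 ± 0.06 in BPH and 0.01 ± 0.06 in BPL).

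Cyp2j6, an arachidonic acid epoxygenase of the chromosome 4 cluster, rose in both strains. The first probe set read 6.97, 6.93, 6.94, 6.72 and 6.60 in BPH livers, 7.03, 6.82, 7.09, 6.70 and 6.98 in BPL livers, and 6.60, 6.26, 6.53, 6.54 and 6.17 in BPN livers. Its rise was 0.42 ± 0.10 in BPH (adjusted p = 0.0152) and 0.51 ± 0.10 in BPL (adjusted p = 0.00305), and the second probe set gave 0.47 ± 0.11 (adjusted p = 0.0126) and 0.40 ± 0.11 (adjusted p = 0.0349). Cyp20a1, an orphan enzyme with no settled substrate, read 6.02, 6.26, 6.37, 6.38 and 6.48 in BPH livers, 6.77, 6.90, 7.02, 6.81 and 6.85 in BPL livers, and 6.28, 6.26, 6.09, 6.09 and 6.17 in BPN livers. BPL stood above all other arrays, 1.62-fold over BPN (0.69 ± 0.08, adjusted p = 1.18e-05). In kidney Cyp20a1 again rose in BPL (0.37 ± 0.07, adjusted p = 0.0027).

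**Figure D3:**
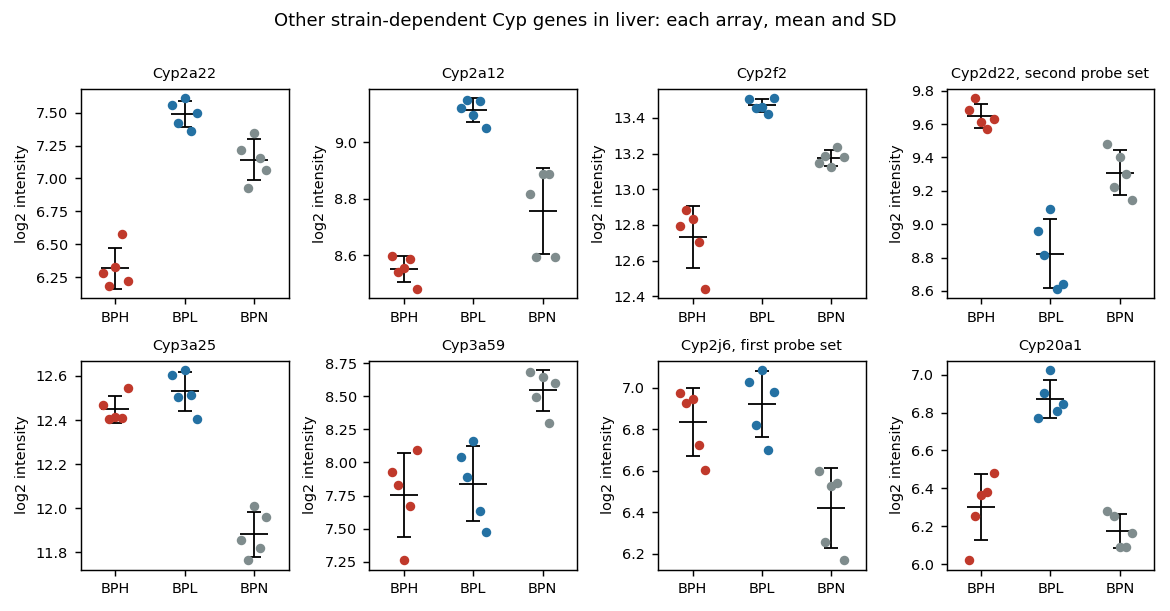
Log2 intensity of 8 Cyp genes on each liver array (points) by strain, with the mean (wide bar) and SD (whiskers), n = 5 arrays per strain. Cyp2a22 and Cyp2f2 run from BPH at the bottom to BPL at the top without overlap, and Cyp3a25 stays at or below 12.01 only in BPN arrays. Axis ranges differ between panels.

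Smaller liver differences concerned Cyp4v3, a fatty acid omega-hydroxylase, which fell in BPH (-0.26 ± 0.07, adjusted p = 0.0198), a call lost without BPH 4 or BPN 1. Cyp1b1 rose in BPL (0.27 ± 0.08, adjusted p = 0.0447) with overlapping arrays, a call that did not hold in 10 of 15 fits that left out 1 array. Cyp1a2, the caffeine oxidase of liver, was higher in BPH than in BPL (0.37 ± 0.07, adjusted p = 0.00138, and 0.806 in the joint fit), while neither strain passed the test against BPN. Several well known members passed no test against BPN in liver. Cyp2e1, the ethanol oxidase, gave 0.00 ± 0.05 in BPH and -0.02 ± 0.05 in BPL, and the vitamin D hydroxylase Cyp2r1 gave -0.02 ± 0.08 and -0.08 ± 0.08. Cyp1a1 gave 0.04 ± 0.11 and -0.16 ± 0.11, Cyp26a1, which clears retinoic acid, -0.23 ± 0.18 and -0.29 ± 0.18, and Cyp7b1, an oxysterol hydroxylase that is male-biased in liver, -0.50 ± 0.19 (adjusted p = 0.139) and -0.48 ± 0.19 (adjusted p = 0.151). Cyp4a14, Cyp24a1, Cyp27b1 and Cyp46a1 were dim in liver and passed no test there.

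By role, of 13 measured genes of 19 listed as arachidonic acid epoxygenases, 2 rose and 2 fell in BPH liver. In BPL liver 1 rose and 5 fell. Counted there were Cyp2c55, which rose in BPH, and Cyp2c70, which fell in BPL, both described above by other reactions. Of 6 measured omega-hydroxylases of 12 listed, 0 rose and 1 fell in BPH and 0 passed in BPL. Of 6 CAR and PXR targets 2 rose and 0 fell in BPH (Cyp2c55 and Cyp3a25) and 1 rose and 1 fell in BPL (Cyp3a25 and Cyp2c29). Of 7 female-biased genes 1 rose and 1 fell in BPH and 0 rose and 1 fell in BPL, and neither of 2 male-biased genes passed in either strain. Over all liver probe sets 7.14% were called in BPH and 7.47% in BPL.

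Kidney differences involved other members of the family. Cyp24a1, on chromosome 2, degrades active vitamin D in the tubule. It read 8.55, 7.82, 8.88, 6.95 and 8.42 in BPH kidneys, 10.15, 9.39, 8.93 and 9.16 in BPL kidneys, and 8.37, 7.004, 7.63, 7.25 and 7.09 in BPN kidneys. BPL lay above all others, 3.84-fold over BPN (1.94 ± 0.36, adjusted p = 0.00224), and BPH gave 0.66 ± 0.34 (adjusted p = 0.33). The highest BPL array, BPL 1, and the arrays BPN 4 and BPN 5 were those with adrenal markers. Without these 3 arrays the BPL difference was 1.49 and the call was lost (adjusted p = 0.0703), and BPH minus BPL was -1.04 (adjusted p = 0.172) against -1.28 ± 0.36 over all arrays (adjusted p = 0.0403), a call that also did not hold in 7 of 14 fits that left out 1 array. Cyp27b1, which makes active vitamin D in the same tubule, read 5.46, 5.25, 5.63, 5.73 and 6.10 in BPH kidneys, 4.65, 4.26, 4.94 and 4.80 in BPL kidneys, and 6.79, 6.21, 5.16, 5.97 and 4.55 in BPN kidneys. Its BPL difference of -1.07 ± 0.33 missed the threshold (adjusted p = 0.0696) and passed it without the 3 arrays (-1.39, adjusted p = 0.0304).

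Cyp7b1, which hydroxylates oxysterols and neurosteroids, differed in kidney in opposite directions. It read 9.78, 9.49, 9.27, 9.43 and 9.43 in BPH kidneys, 8.58, 8.50, 8.05 and 8.40 in BPL kidneys, and 8.79, 8.74, 8.87, 8.999 and 9.06 in BPN kidneys. The 3 strains did not overlap. It rose 1.502-fold in BPH (0.59 ± 0.11, adjusted p = 0.00213), fell 1.42-fold in BPL (-0.51 ± 0.11, adjusted p = 0.0118) and was 2.14-fold higher in BPH than in BPL (1.09 ± 0.11, adjusted p = 7.51e-06). The fall in BPL was no longer called without the arrays with adrenal markers (-0.48, adjusted p = 0.0658). The BPH effect in liver was below that in kidney by -1.08 ± 0.23 (adjusted p = 0.00364).

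Cyp2d genes, on chromosome 15, changed in kidney too. Of 5 measured, 2 rose and 0 fell in BPH, and 0 rose and 1 fell in BPL. Cyp2d12 read 9.09, 9.15, 9.25, 9.15 and 9.56 in BPH kidneys, 8.55, 8.29, 8.31 and 8.33 in BPL kidneys, and 8.41, 8.45, 8.55, 8.75 and 8.79 in BPN kidneys, a rise of 1.57-fold in BPH (0.65 ± 0.10, adjusted p = 0.000387) with BPH arrays above all others. Cyp2d9 read 11.46, 11.35, 11.36, 11.45 and 11.61 in BPH kidneys, 11.07, 11.22, 11.37 and 11.15 in BPL kidneys, and 10.78, 10.37, 11.29, 10.66 and 10.92 in BPN kidneys, and rose in BPH (0.64 ± 0.13, adjusted p = 0.00351). Cyp2d26 fell in BPL (-0.47 ± 0.09, adjusted p = 0.00313) and gave -0.29 ± 0.09 in BPH (adjusted p = 0.0548), which passed without the arrays with adrenal markers (-0.40, adjusted p = 0.00996). Cyp2d9 and Cyp7b1, the 2 measured male-biased liver genes, both rose in BPH kidney. Of 3 measured genes that androgen raises in mouse kidney (5 listed), Gusb and Slco1a1 rose in BPH (1.78 ± 0.12 and 0.61 ± 0.14) while Kap gave 0.01 ± 0.05, and in BPL Slco1a1 alone rose (1.03 ± 0.14). The mean level of that list was 11.71 to 12.05 in BPH, 11.27 to 11.54 in BPL and 10.90 to 11.26 in BPN kidneys. Its part in the Cyp results was not tested.

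Cyp2j genes, on chromosome 4, form epoxides of arachidonic acid in kidney. Cyp2j13 read 7.88, 7.87, 7.79, 7.82 and 7.86 in BPH kidneys, 8.40, 8.52, 8.36 and 8.33 in BPL kidneys, and 8.65, 8.49, 8.47, 8.79 and 8.83 in BPN kidneys. BPH lay below all other arrays, 1.74-fold under BPN (-0.80 ± 0.07, adjusted p = 1.63e-06). Cyp2j11 read 10.31, 10.08, 10.12, 10.29 and 10.33 in BPH kidneys, 10.61, 10.62, 10.73 and 10.55 in BPL kidneys, and 10.10, 9.93, 10.07, 10.31 and 10.27 in BPN kidneys, a rise of 1.40-fold in BPL (0.49 ± 0.08, adjusted p = 0.00126). Cyp2j6 rose in BPH on the first probe set (0.49 ± 0.08, adjusted p = 0.000818) and did not pass on the other. In kidney, of 13 measured genes listed as epoxygenases, 0 rose and 1 fell in BPH and 1 rose and 0 fell in BPL. Each was represented by its brighter probe set. Over all kidney probe sets 7.05% were called in BPH and 6.24% in BPL, near these counts.

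**Figure D4:**
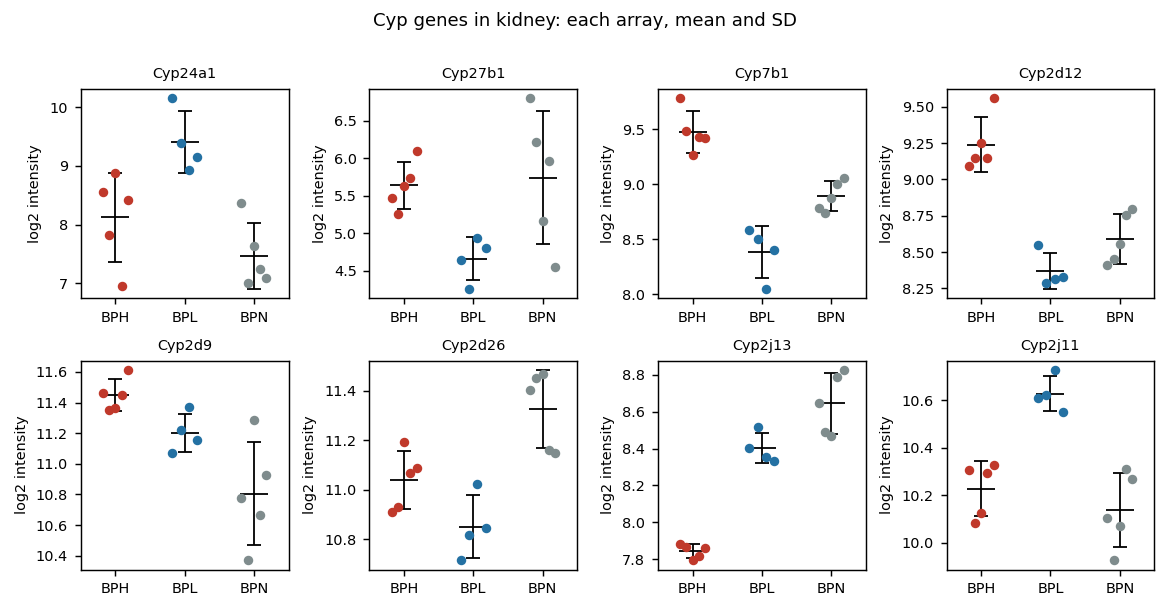
Log2 intensity of 8 Cyp genes on each kidney array (points) by strain, with the mean (wide bar) and SD (whiskers), n = 5 BPH, 4 BPL and 5 BPN arrays. Cyp24a1 is highest in BPL arrays, Cyp7b1 separates all 3 strains, and Cyp2j13 is lowest in BPH arrays, at 7.88 or below. Axis ranges differ between panels.

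The pseudogene Cyp4b1-ps2 was dim in kidney yet rose in both strains, reading 4.56, 4.16, 3.92, 4.13 and 3.79 in BPH, 3.88, 4.30, 4.83 and 4.87 in BPL, and 3.07, 3.39, 3.26, 3.12 and 2.99 in BPN (0.95 ± 0.17, adjusted p = 0.00203, and 1.30 ± 0.18, adjusted p = 0.000183). Of 5 genes of the Cyp4a and 4x group, which includes this pseudogene, 2 rose and 0 fell in BPH kidney, and 1 rose and 1 fell in BPL kidney. The dim Cyp4a14, a fatty acid omega-hydroxylase, rose in BPH (0.31 ± 0.07, adjusted p = 0.0138), a call lost without the arrays with adrenal markers (0.28, adjusted p = 0.072). Cyp4a30b fell in BPL (-0.48 ± 0.13, adjusted p = 0.0312), which did not hold without those arrays (-0.45, adjusted p = 0.143) or in 6 of 14 fits that left out 1 array. Cyp2s1 rose in BPH (0.23 ± 0.06, adjusted p = 0.0298), which did not hold in 6 of 14 fits that left out 1 array or without the arrays with adrenal markers (0.22, adjusted p = 0.117). Cyp1a1, dim here, fell in BPH (-0.34 ± 0.08, adjusted p = 0.016), and Cyp26a1 was higher in BPH than in BPL (0.42 ± 0.10, adjusted p = 0.0175), a call lost without BPL 2.

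Other fixed members passed no test against BPN in kidney. Cyp1b1 gave 0.18 ± 0.09 in BPH and 0.16 ± 0.09 in BPL, Cyp2e1 gave 0.12 ± 0.07 and -0.02 ± 0.07, Cyp4v3 gave 0.20 ± 0.08 and 0.08 ± 0.08, and Cyp2f2 gave 0.12 ± 0.20 and -0.27 ± 0.21. Cyp1a2, Cyp2b9, Cyp2b10, Cyp2r1, Cyp3a11 and Cyp46a1 were dim in kidney.

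Whether an effect differed between liver and kidney was tested directly, with the arrays of both tissues taken as independent. The labels do not say whether same-numbered arrays of both tissues came from the same mouse. The BPH minus BPN effect differed for 13 member probe sets (19.7%, background 4.2%) and the BPL minus BPN effect for 10 (15.2%, background 4.74%). Of these, 5 of 13 and 4 of 10 were above the array median in both tissues. The others rest on a dim reading in at least 1 tissue. The Cyp2c23, Cyp2c39, Cyp2a22 and Cyp3a25 effects of liver differed from their kidney effects in both strains, and all of these but Cyp2c23 were dim in kidney. Among genes above the array median in both tissues, Cyp2c23 and Cyp2d26 had different effects in both strains, Cyp2d9, Cyp4v3 and Cyp7b1 in BPH, and Cyp2d22 in BPL.

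Partners of P450 enzymes were read from lists chosen with earlier results known. Of 9 measured electron donors and haem genes of 12 listed, 2 rose and 2 fell in BPH liver and 2 rose and 2 fell in BPL liver. Alas1, the rate-limiting enzyme of haem synthesis, averaged 9.27 ± 0.81 in BPH, 8.37 ± 0.68 in BPL and 10.71 ± 0.30 in BPN livers (SD, n = 5 each). It fell in BPH (-1.44 ± 0.33, adjusted p = 0.00965) and in BPL (-2.34 ± 0.33, adjusted p = 9.27e-05). Alad, the next enzyme of that pathway, averaged 11.68 ± 0.08 in BPH, 10.997 ± 0.214 in BPL and 10.09 ± 0.06 in BPN livers and rose in both (1.59 ± 0.09, adjusted p = 2.42e-10, and 0.91 ± 0.09, adjusted p = 7.02e-07). In kidney Alas1 fell as well (-0.79 ± 0.14 in BPH and -1.04 ± 0.15 in BPL) and Alad rose (1.22 ± 0.08 and 0.72 ± 0.09). Fdx1, which feeds electrons to mitochondrial P450 enzymes, rose in BPH and BPL liver (0.27 ± 0.06 and 0.25 ± 0.06), Cyb5r3 fell in BPH liver (-0.30 ± 0.07) and rose in BPH kidney (0.29 ± 0.06), and Cyb5a fell in BPL liver (-0.33 ± 0.06).

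Of 15 measured receptors and transcription factors of 16 listed, 1 rose and 1 fell in BPH liver, 0 rose and 2 fell in BPL liver and 0 passed in kidney. Tiparp, a target and repressor of the aryl hydrocarbon receptor, fell in BPH and BPL liver (-0.58 ± 0.09 and -0.52 ± 0.09), the coactivator Ppargc1a rose in BPH (0.64 ± 0.14) and Onecut1 fell in BPL (-1.41 ± 0.38). CAR itself, Nr1i3, gave 0.03 ± 0.09 in BPH and -0.11 ± 0.09 in BPL, and PXR, Nr1i2, gave -0.14 ± 0.12 and -0.13 ± 0.12, none past the threshold. Of 7 regulators of sex-biased liver genes, Trim24 rose in BPH and BPL (0.52 ± 0.12 and 0.46 ± 0.12) and Stat5b in BPL (0.43 ± 0.07). Of 4 epoxide hydrolases, which clear the epoxygenase products, 0 passed in liver, and Ephx2 rose in BPL kidney (0.20 ± 0.06, adjusted p = 0.0469). The 3 clock factors of the PAR bZIP family, which drive daily rhythms of Cyp genes, passed no limma test in liver or kidney at an adjusted p of 0.05.

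In heart the calls were few and mostly on dim genes. Cyp2b10 read 3.64, 3.17, 3.54, 3.15 and 3.35 in BPH hearts, 3.79, 3.00, 3.74, 3.26 and 3.86 in BPL hearts, and 4.28, 4.88, 4.48, 4.10 and 4.28 in BPN hearts, and fell in BPH (-1.03 ± 0.17, adjusted p = 0.000483) and in BPL (-0.87 ± 0.17, adjusted p = 0.00209), calls lost in the joint fit (adjusted p = 0.154 and 0.266). Cyp2j12, also dim, rose in BPH (0.50 ± 0.11, adjusted p = 0.00561) and in BPL (0.53 ± 0.11, adjusted p = 0.0031), again lost in the joint fit (adjusted p = 0.171 and 0.11). Cyp2j9 rose in BPL (0.28 ± 0.08, adjusted p = 0.0335), a call that did not hold in 5 of 15 fits that left out 1 array. For Cyp2j6 the probe sets disagreed. The first rose in BPH (0.33 ± 0.08, adjusted p = 0.0145) and gave -0.05 ± 0.08 in BPL. The second rose in BPL (0.33 ± 0.08, adjusted p = 0.0173, and 0.31 with adjusted p = 0.0679 without the arrays high in hepatocyte markers) and gave 0.23 ± 0.08 in BPH. The BPL call on the second was also lost without BPN 2. Cyp26b1 gave 1.13 ± 0.39 in BPH (adjusted p = 0.0999) and Cyp1b1 gave -0.45 ± 0.14 (adjusted p = 0.0735). Cyp2e1, Cyp20a1, Cyp4f13 and Cyp1a1 also passed no test in heart, and Cyp7b1 passed only without the arrays high in hepatocyte markers (BPL minus BPN -0.35, adjusted p = 0.0254).

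Some liver-type members in heart were highest in the arrays with hepatocyte markers and others were not. Cyp3a11 read 11.23 in BPH 1, 10.90 in BPL 4 and 10.40 in BPN 1, where Alb read 12.14, 12.00 and 11.69, and it lay between 8.40 and 9.59 in the other 12 hearts. Without those 3 arrays Cyp3a11 passed the test in BPH (0.64, adjusted p = 0.0118), as did the dim Cyp3a25 in BPH (0.63, adjusted p = 0.00452) and BPL (0.45, adjusted p = 0.0366), while Cyp2c29 (-0.59, adjusted p = 0.0411) and Cyp2c70 (-0.88, adjusted p = 0.0225) passed in BPL. Between BPH and BPL hearts Cyp1a2, Cyp2c29 and Cyp3a11 passed (0.82, 0.84 and 0.78) and the dim Cyp26c1 was lost (adjusted p = 0.074). In the hearts kept, Alb still read 9.91 to 10.84 in BPH, 9.55 to 9.89 in BPL and 9.84 to 10.43 in BPN. The part of remaining hepatocyte RNA in these calls was not tested. Cyp2e1 read 10.29 in BPL 4, but its next highest hearts were BPL 3 at 9.78 and BPN 5 at 9.75, above BPN 1 at 9.47 and BPH 1 at 9.44. Cyp2f2 read 10.91 in BPN 2, 8.86 in BPL 5 and 8.54 in BPL 4, and at most 7.16 elsewhere. The club cell secretoglobin Scgb1a1 was also highest in those 3 arrays, at 12.999, 10.74 and 6.51, apart from BPN 3 at 7.13. The other lung markers were each highest in BPN 2. Sftpd read 5.18 there against at most 3.26 elsewhere, Sftpc 5.17 against at most 4.79 and Sftpb 5.77 against at most 5.52. These lung genes were looked up after the Cyp2f2 values were seen.

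In aorta Cyp26b1, which degrades retinoic acid, differed most. Its lowest, median and highest values were 6.94, 7.27 and 7.88 in BPH, 6.42, 6.86 and 7.67 in BPL, and 7.91, 8.03 and 8.28 in BPN. All 18 BPH and BPL arrays were below all 5 BPN arrays, 1.73-fold in BPH (-0.79 ± 0.17, adjusted p = 0.00201) and 2.23-fold in BPL (-1.16 ± 0.17, adjusted p = 1.79e-05). Cyp1b1, which is well expressed in vascular smooth muscle, ran at 11.45, 11.57 and 11.81 in BPH, 11.50, 11.71 and 11.77 in BPL, and 11.65, 11.90 and 12.03 in BPN. It fell in BPH (-0.29 ± 0.08, adjusted p = 0.0203), with overlap and lost without BPN 12 or BPN 13. Cyp2d22 on the second probe set ran at 9.08, 9.20 and 9.37 in BPH, 8.52, 8.69 and 8.96 in BPL, and 9.06, 9.24 and 9.39 in BPN, a fall of 1.45-fold in BPL with no overlap (-0.54 ± 0.08, adjusted p = 2.36e-05). The first probe set gave -0.26 ± 0.15 in BPL (adjusted p = 0.341) and was higher in BPH than in BPL (0.63 ± 0.12, adjusted p = 0.000861). Of 3 brown fat markers, 1 rose in BPH and 2 rose in BPL aorta, with list means of 11.66 to 12.68 in BPH, 12.07 to 12.99 in BPL and 10.26 to 12.14 in BPN. Their part in the aorta results was not tested. Cyp1a1, Cyp2e1, Cyp2j9, Cyp4f13, Cyp7b1 and Cyp20a1 passed no test against BPN in aorta, and the brighter Cyp2j6 probe set gave 0.37 ± 0.13 in BPH (adjusted p = 0.0769) and 0.02 ± 0.13 in BPL. Array BPL 26 read 8.88 for Cyp3a11, against at most 2.75 in the other aortas, and leaving it out changed no call against BPN. Between BPH and BPL aortas the dim genes Cyp2f2 (1.21, adjusted p = 0.0192) and Cyp7b1 (0.53, adjusted p = 0.0192) passed without it.

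**Figure D5:**
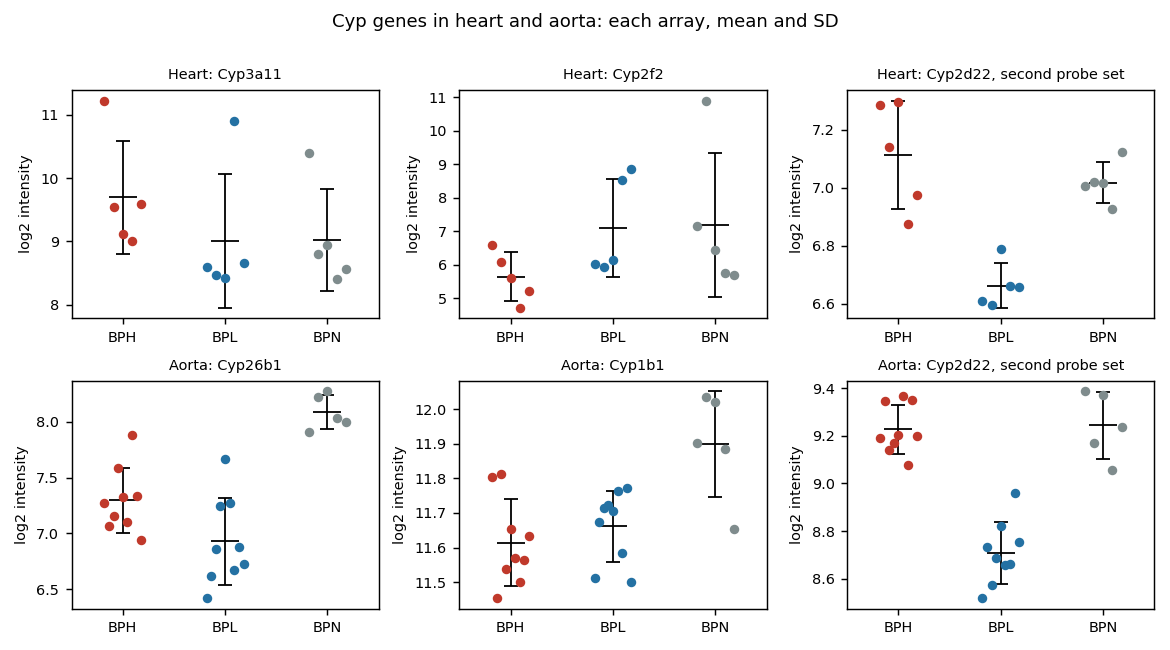
Log2 intensity of Cyp genes on each heart array (upper row, n = 5 per strain) and aorta array (lower row, n = 9 BPH, 9 BPL and 5 BPN), with the mean (wide bar) and SD (whiskers). Single heart arrays stand above their strain for Cyp3a11 and Cyp2f2, and all BPN aortas lie above the others for Cyp26b1. Axis ranges differ between panels.

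Cyp4f18, which inactivates leukotrienes in myeloid cells, was dim everywhere and lower than in BPN in most comparisons. It fell in BPH in all 4 tissues, with differences of -0.32 ± 0.09 in liver, -0.36 ± 0.07 in kidney, -0.58 ± 0.13 in heart and -0.73 ± 0.17 in aorta, and in BPL kidney (-0.33 ± 0.08), heart (-0.53 ± 0.13) and aorta (-0.70 ± 0.17). The liver call did not hold in 8 of 15 fits that left out 1 array. Macrophage markers are given beside it. Of 4 measured of 5 listed, 4 fell in BPH liver and 3 in BPL liver, 2 fell in BPH kidney and 0 in BPL kidney, 2 fell in BPH heart and 4 in BPL heart, and 0 passed in aorta. In BPL liver Cyp4f18 gave -0.21 and was not called. The mean of the macrophage list was 6.98 to 7.35 in BPH, 7.27 to 7.39 in BPL and 7.56 to 7.90 in BPN livers. In kidney it was 6.20 to 6.40 in BPH, 6.58 to 7.25 in BPL and 6.74 to 7.12 in BPN arrays. In heart it was 8.06 to 8.32 in BPH, 8.18 to 8.24 in BPL and 8.52 to 9.04 in BPN hearts. In aorta it was 7.71 to 8.67 in BPH, 7.77 to 8.54 in BPL and 7.67 to 8.86 in BPN arrays. The part of myeloid cell number in the Cyp4f18 result was not tested.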

How the data were processed

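The authors deposited 1 intensity per probe set and array, on a linear scale. It was normalised with RMA on a custom Affymetrix mouse array, as the submitters' processing notes and the design text state. RMA brings arrays close to a common distribution, which removes differences in total RNA. Array medians ran from 13.6 to 14.4 in liver, 29.8 to 31.5 in kidney, 24.6 to 26.3 in heart and 25.3 to 26.6 in aorta, and no level was set across tissues. The number of arrays limits the precision. No batch was given. Members were taken by symbol from the platform annotation, which names 1 gene for 24478 of 38385 probe sets, and the members and lists were chosen with earlier results of these data known. Genes named were the 6 (heart and aorta 3, BPH against BPL 3) largest called changes in each direction without overlap, plus fixed genes. Listed genes that no probe set names were not analysed here.

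The deposited intensity was turned to log2 with a pseudocount of 0. A limma fit (limma 3.58.1, R 4.3.3; lmFit, contrasts.fit, eBayes) with a mean per strain was made for each tissue alone, and p-values were adjusted by Benjamini-Hochberg over all probe sets at a threshold of 0.05. Liver and kidney effects were compared in 1 joint fit of both tissues, which took all arrays as independent. The fit was tested on simulated data. A gene with several probe sets was represented by its brightest. Entrez identifiers placed all 66 member probe sets in RefSeq, and 52 member genes had a promoter entry. Alternatives were other scalings, weights, filters, priors and sample sets, and leaving out each array. For same-numbered arrays of different strains in a tissue, correlations of deviations ran from -0.285 to 0.278, and numbers were not taken as pairs. The correlations were all positive between BPN and BPL livers (0.04 to 0.27). They were all negative between BPL and either other strain in kidney (-0.29 to -0.03), and of mixed sign elsewhere. This check had no differently numbered arrays as a reference. That check cannot tell whether a number marks the same mouse across tissues, which was not tested.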

Additional observations from a re-analysis of the deposited data

Results flagged for a closer look

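In 264 groups of arrays, one per named gene, strain and tissue, 16 had a highest or lowest array far from its neighbour, and chance gives about 1 in 20. In liver Cyp2c55 was highest in BPL 3 at 5.79 (next 5.04), Cyp3a57 in BPH 4 at 3.53 (next 3.14) and Cyp2b9 in BPH 5 at 4.89 (next 3.07). Cyp27b1 was highest in BPH 2 at 2.99 (next 2.78) and in BPN 2 at 2.87 (next 2.71), and Cyp3a44 was lowest in BPN 5 at 4.65 (next 4.84). In kidney Cyp2d12 was highest in BPL 1 at 8.55 (next 8.33) and Cyp2d22 in BPH 5 at 7.38 (next 7.12). Cyp2b9 was lowest in kidney BPL 1 at 3.04 (next 3.13), and Cyp46a1 was lowest in kidney BPL 1 at 4.27 (next 4.60) and BPN 4 at 4.49 (next 4.77), both arrays with adrenal markers. Cyp7b1 was highest in heart arrays BPL 4 at 4.33 (next 3.33) and BPN 1 at 4.12 (next 3.65) and in aorta array BPL 26 at 5.31 (next 3.73), all 3 of them arrays high in hepatocyte markers. The part of those cells was not tested. In aorta array BPN 14 Cyp20a1 was highest at 6.72 (next 6.23) and Cyp2j9 lowest at 5.90 (next 6.29).

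The strain effect differed between liver and kidney in the joint limma fit for 21 named results, given here as the liver minus the kidney log2 difference. For BPH minus BPN it was -3.02 for Cyp2c23, 2.84 for Cyp2c55, -1.42 for Cyp2c39, -1.08 for Cyp7b1, 0.82 for Cyp2j13, -0.81 for Cyp2d12, -0.77 for Cyp4b1-ps2 and -0.77 for Cyp2a22. It was -0.60 for Cyp2d9, 0.58 for Cyp3a25, -0.46 for Cyp4v3, 0.41 for Cyp2d26 and -0.37 for Cyp2a12. For BPL minus BPN it was -2.88 for Cyp2c23, -1.95 for Cyp24a1, -1.43 for Cyp2c39, -1.14 for Cyp4b1-ps2, 0.62 for Cyp3a25, -0.61 for Cyp2d22, 0.49 for Cyp2d26 and 0.44 for Cyp2a22. Of these genes Cyp2a12, Cyp2a22, Cyp2c39, Cyp2c55 and Cyp3a25 were dim in kidney, Cyp24a1, Cyp2d12 and Cyp2j13 were dim in liver and Cyp4b1-ps2 was dim in both, so their differences rest on at least 1 dim reading.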

How the results depend on the processing

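No called difference of a named gene turned direction under any alternative run. Of 67 called results on named genes, 31 held under every alternative, 36 were lost in at least 1 and 11 of these when 1 array was left out, and 21 results not called were called in at least 1. Fitting the 12 groups together changed the member counts most, to 11 for BPL against BPN and 7 for BPH against BPL in liver, to 5, 3 and 5 in kidney (BPH against BPN, BPL against BPN, BPH against BPL), to 3 for BPL against BPN in heart, to 8, 6 and 7 in aorta, and to 7 for the liver against kidney difference of BPH minus BPN. The cause was not tested. Liver calls it lost include Cyp3a25 (adjusted p = 0.699 in BPH and 0.611 in BPL) and Cyp2f2 (0.915 in BPH and 0.977 in BPL), and kidney calls include Cyp2d9 (0.727) and Cyp2d26 (0.754). The shared spread of that fit is taken over all 4 tissues. Cyp3a25 ran from 3.49 to 6.54 over heart arrays and from 11.76 to 12.63 over liver arrays. Cyp2f2 ran from 4.71 to 10.91 over heart arrays and from 12.44 to 13.51 over liver arrays. In heart, leaving out dim probe sets gave 4 for BPL against BPN and 1 probe set per gene gave 2 for BPH against BPL, both by testing fewer probe sets. In aorta, array weights gave 5 for BPH against BPN. Leaving out 1 array gave 11 to 16, 15 to 18 and 10 to 13 members in liver, 9 to 12, 7 to 10 and 7 to 11 in kidney, 4 to 6, 6 to 8 and 4 to 6 in heart, and 2 to 4, 3 to 4 and 2 to 6 in aorta, in the order BPH against BPN, BPL against BPN and BPH against BPL, and 10 to 14 and 8 to 11 for the liver against kidney differences. The lowest aorta count for BPH against BPL, 2, came without BPH 3, 8, 9 or 10 or BPL 23 or 24. The replicate block gave 14, 19 and 12 members in liver, 8, 8 and 8 in kidney, and 5, 6 and 5 in heart, and no paired analysis was possible in aorta because the strains share fewer than 2 replicate numbers there. Without the arrays high in adrenal markers, kidney gave 10, 6 and 8 members, sharing 8, 5 and 8 with the counts of 10, 8 and 10 over all arrays. Without the arrays high in hepatocyte markers, heart gave 6, 10 and 6 and aorta 3, 3 and 6, sharing 4, 6 and 3 with the heart counts of 4, 7 and 4 and 3, 3 and 4 with the aorta counts of 3, 3 and 4 over all arrays. Low intensity limits readings of dim genes, whose background was not measured here.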

Other observations

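In liver 3 arrays lay outside the range of their strain mates for Cyp2b9, Cyp4a14, Cyp7b1 and Cyp2c39, genes picked out after the values were seen. In BPH 4, BPH 5 and BPL 4 the female-biased Cyp2b9, dim in liver, read 3.07, 4.89 and 2.67, against at most 2.52 in the other BPH and 2.41 in the other BPL livers. Cyp4a14, also female-biased and dim, read 3.58, 3.22 and 2.62, against at most 2.53 in the other BPH and 2.47 in the other BPL livers. The male-biased Cyp7b1 read 9.17, 8.94 and 8.96, against at least 9.72 in the other BPH and 9.45 in the other BPL livers. Cyp2c39 read 8.82, 8.62 and 9.07, against at most 8.54 in the other BPH and 8.19 in the other BPL livers. Other female-biased members shared this only in part. BPH 5 was the highest BPH liver for Cyp2b10 at 6.27. BPH 4 and BPH 5 were the highest BPH livers for the dim Cyp2b13, at 3.47 and 3.67. BPL 4 was the highest BPL liver for Cyp3a44 at 5.06 and for the dim Cyp3a16 at 2.13. By contrast, BPH 4 was the lowest BPH liver for Cyp2b10 at 3.98 and for Cyp3a44 at 4.99. BPL 4 was the lowest BPL liver for Cyp2b13 at 3.504. The cause was not tested.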
